A study of Mus musculus with 12 samples.

Results

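Siglecs are receptors of the immunoglobulin superfamily that bind sialic acids on the glycans of other cells or of the same cell. Most carry cytoplasmic tyrosine motifs that recruit the phosphatases SHP-1 and SHP-2 and dampen activation, whereas others pair with the adaptor DAP12 or, in the case of Siglec1 (sialoadhesin, CD169), serve mainly in adhesion and uptake. On macrophages and other myeloid cells they are studied as checkpoints that tumor sialoglycans can engage, and Siglec1 is a widely used marker of cells that have responded to type I IFN. The mouse Siglec genes described here were Siglec1, Cd22, Cd33, Siglece, Siglecf, Siglecg and Siglech. These 7 members were chosen by symbol, with earlier results of these data known, and each had 1 of the 56748 rows of the count matrix. After the filter on low counts, 5 of the 7 members remained among the 15033 genes tested, and Siglecg and Siglech did not.

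Expression was measured by bulk RNA sequencing of M2-like bone marrow–derived macrophages (BMDM) from C57BL/6J mice, with 3 libraries in each of 4 conditions. All BMDM had been grown in M-CSF at 20 ng/mL, had received IL4 at 10 ng/mL for 48 hours, and were then cultured for 72 hours as untreated control, with eGFP supernatant, with Ifnb1eGFP supernatant or with rIFNβ. The donor mice were female wild-type animals bought at 10 to 12 weeks of age. The supernatants came from YUMM5.2 cells, a mouse melanoma line, that had been exposed to 1 μg/mL Dox over 72 hours. Their lentiviral construct was Dox-inducible and encoded Ifnb1 with eGFP in the Ifnb1eGFP cells and eGFP without Ifnb1 in the control cells. The Ifnb1eGFP medium was brought to 1500 pg/mL IFNβ by dilution, rIFNβ was used at the equivalent concentration, and eGFP supernatant was diluted by the same ratio as Ifnb1eGFP supernatant. Each supernatant is that of 1 transduced line.

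Library totals ranged from 31526034 to 45348457 counts. All 8 macrophage markers examined, including Adgre1, Csf1r and Cd68, were above the floor of 3 counts in every library, and their summed level was 14390 to 15590 CPM (counts per 1000000 of the TMM-normalized library total) in untreated control, 18244 to 18794 with eGFP supernatant, 10497 to 10716 with Ifnb1eGFP supernatant and 9814 to 9945 with rIFNβ. The lysozyme gene Lyz2, at 3439 to 12823 CPM over the 12 libraries, was the largest single part of that sum and fell with IFNβ. Its log2 fold changes were -1.59 for Ifnb1eGFP against eGFP supernatant and -1.44 for rIFNβ against untreated control. Of the 8 markers 4 rose and 3 fell in each of these comparisons. Over all genes tested 30.1% rose and 25% fell in the first and 30.7% rose and 24.6% fell in the second. Among the markers Fcgr1 had 3.85 and 4.46, Mertk 0.32 and 0.30, and Cd14 -0.78 and -0.96. Itgam had -1.99 and -2.17, Adgre1 0.21 and 0.18, Cd68 0.35 and 0.50, and Csf1r, the one not called, 0.04 and 0.10. A sum of 12 interferon-stimulated genes, which does not contain Siglec1, was 105 to 171 CPM in untreated control, 9654 to 10626 CPM with Ifnb1eGFP supernatant and 10273 to 10813 CPM with rIFNβ. With eGFP supernatant it was 189 CPM in replicate 1, 792 CPM in replicate 2 and 119 CPM in replicate 3, so replicate 2 stood apart from the other libraries without added IFNβ. Ifnb1eGFP supernatant replicate 2 also stood apart, in that leaving it out raised the calls over all genes between Ifnb1eGFP supernatant and rIFNβ from 21 higher and 3 lower to 194 higher and 857 lower. Results on the Siglec genes that rest on either library are given with and without it.

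Siglec1 was the most abundant Siglec transcript in M2-like BMDM and rose in response to IFNβ from either source. It encodes the largest member of the family, with a long chain of immunoglobulin domains that reaches beyond the macrophage's own sialic acids. The gene (ENSMUSG00000027322) lies on the minus strand of chromosome 2 at 130911140 to 130928685 (GRCm39). In untreated control it was at 89.8, 71.9 and 49.6 CPM in replicates 1, 2 and 3, and with eGFP supernatant at 77.9, 124 and 56.5 CPM. With Ifnb1eGFP supernatant it was at 641, 776 and 691 CPM, and with rIFNβ at 916, 865 and 782 CPM. Every library that received IFNβ was therefore above every library that did not. Of all genes tested, 32.4% lay wholly higher and 26.6% wholly lower with Ifnb1eGFP than with eGFP supernatant, and 36.4% and 29.7% with rIFNβ than in untreated control. These shares are for each comparison by itself, and the share over both together was not computed.

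Siglec1 averaged 703 ± 68.1 CPM (SD, n = 3) with Ifnb1eGFP supernatant, which was 8.14-fold above the 86.3 ± 34.7 CPM with eGFP supernatant. On the log2 scale this was 3.03 with a standard error of 0.276 (adjusted p = 2.73e-06, quasi-likelihood F test in edgeR, adjusted over all genes tested by the method of Benjamini and Hochberg, as for every adjusted p here). Between untreated control (70.4 ± 20.1 CPM) and rIFNβ (854 ± 67.7 CPM) the difference was 12.1-fold, or 3.60 with a standard error of 0.283 on the log2 scale (adjusted p = 7.41e-07). The largest level without added IFNβ, 124 CPM, belonged to eGFP supernatant replicate 2, the library with the raised interferon-stimulated genes. Without that library the log2 fold change for Ifnb1eGFP against eGFP supernatant was 3.39. The part of that library's interferon-stimulated genes in its Siglec1 level was not tested. In bulk RNA, more cells that express a gene and more RNA per cell cannot be told apart.

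**Figure D1:**
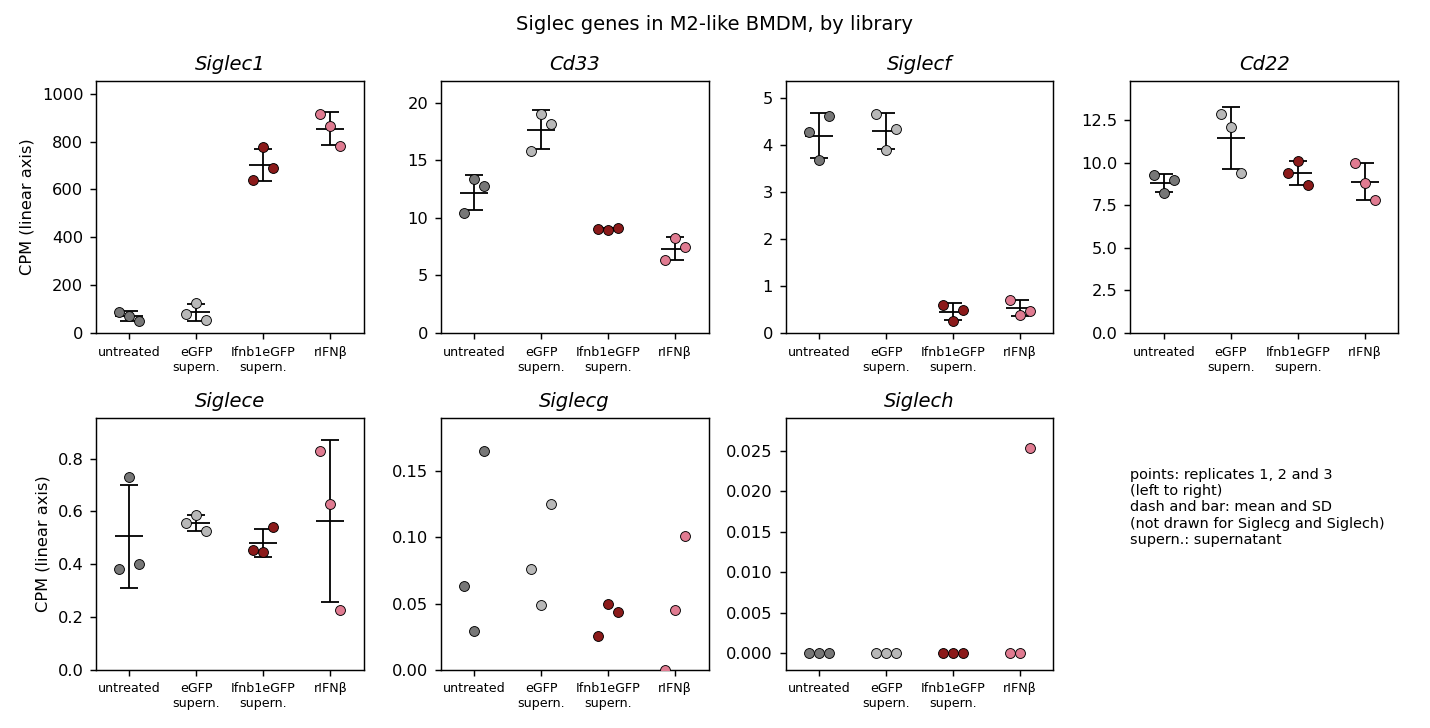
CPM (linear axis, a separate scale in each panel) of the 7 Siglec genes in each library, with replicates 1, 2 and 3 from left to right in each condition and the mean and SD as dash and bar for the 5 tested genes. Siglec1 lies at 641 CPM or more in the 6 libraries with IFNβ and at 124 CPM or less in the other 6, Siglecf shows the opposite order, and Siglech has a count in 1 library alone.

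Siglecf fell to a small fraction of its level with either source of IFNβ. Siglec-F is an inhibitory receptor best known from eosinophils and alveolar macrophages. The gene (ENSMUSG00000039013) lies on the plus strand of chromosome 7 at 43000765 to 43008955 (GRCm39), in the gene cluster that also holds Siglecg, Cd33 and Siglece. Siglecf was at 4.29, 3.69 and 4.63 CPM in untreated control and at 4.67, 3.90 and 4.34 CPM with eGFP supernatant. It was at 0.607, 0.248 and 0.499 CPM with Ifnb1eGFP supernatant and at 0.712, 0.382 and 0.480 CPM with rIFNβ. The libraries with and without IFNβ did not overlap, and the counts behind these levels were 126 to 196 without IFNβ and 10 to 24 with it. In the single comparisons 26.6% (Ifnb1eGFP against eGFP supernatant) and 29.7% (rIFNβ against untreated control) of all genes tested lay wholly lower.

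Siglecf was 9.46-fold lower with Ifnb1eGFP than with eGFP supernatant (0.451 ± 0.184 against 4.30 ± 0.389 CPM; log2 fold change -3.24, standard error 0.263, adjusted p = 1.07e-06). It was 8.12-fold lower with rIFNβ than in untreated control (0.525 ± 0.169 against 4.20 ± 0.480 CPM; log2 fold change -3.02, standard error 0.262, adjusted p = 1.68e-06). Of 5 eosinophil markers, Epx, Prg2, Prg3 and Il5ra had at most 3 counts in any library, so the granule genes that define eosinophils were at or near 0. The fifth, the chemokine receptor gene Ccr3, was at 114 to 178 CPM and carried the sum of the list, which was 154 to 178 CPM in untreated control, 154 to 161 with eGFP supernatant, 133 to 137 with Ifnb1eGFP supernatant and 114 to 125 with rIFNβ.

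Cd33 also fell with IFNβ, by a smaller factor, and its level with eGFP supernatant stood above that in untreated control. Mouse CD33 is expressed on myeloid cells and, unlike its human counterpart, can pair with the adaptor DAP12. The gene (ENSMUSG00000004609) lies on the minus strand of chromosome 7 at 43173634 to 43193875 (GRCm39). Cd33 was at 10.5, 13.4 and 12.7 CPM in untreated control, at 15.8, 19.0 and 18.1 CPM with eGFP supernatant, at 9.02, 8.91 and 9.10 CPM with Ifnb1eGFP supernatant, and at 6.32, 8.25 and 7.43 CPM with rIFNβ. No 2 of these 4 conditions overlapped, and rIFNβ was the lowest. Of all genes tested, 26.6% lay wholly lower with Ifnb1eGFP than with eGFP supernatant and 29.7% with rIFNβ than in untreated control. The share with all 4 conditions apart was not computed.

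Cd33 was 1.96-fold lower with Ifnb1eGFP (9.01 ± 0.0934 CPM) than with eGFP supernatant (17.6 ± 1.67 CPM), a log2 fold change of -0.97 with a standard error of 0.112 (adjusted p = 2.00e-05). It was 1.66-fold lower with rIFNβ (7.33 ± 0.970 CPM) than in untreated control (12.2 ± 1.54 CPM), a log2 fold change of -0.73 with a standard error of 0.116 (adjusted p = 0.000222). The annotation places the genes Gm72285 and Gm72294 across Cd33 on the other strand. Neither has a row in the matrix, and whether the counting used strand is not given in the sources used here.

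With these genes, 3 of the 5 tested Siglecs were called (adjusted p ≤ 0.05) in each of the 2 IFNβ comparisons, Siglec1 higher and Siglecf and Cd33 lower. Over all genes tested, 55.1% were called for Ifnb1eGFP against eGFP supernatant (30.1% higher and 25% lower), and 55.3% for rIFNβ against untreated control (30.7% higher and 24.6% lower). The members' count was thus near the background in both. At the study's thresholds, a size of 2 or more on the log2 scale and an adjusted p no higher than 0.01, Siglec1 and Siglecf remained in both comparisons, where 5.39% and 5.77% of all genes tested were called. The 2 comparisons share no library.

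The promoters of the 2 Siglec genes that fell are printed here because they share a longer run of bases than any other pair of members. They are the RefSeq windows from 250 bases before to 50 bases after the start of each gene (GRCm38.p6), each in the direction of its gene, with the shared run of 16 bases in capitals.
Siglecf, chr7:43351091-43351390, plus strand: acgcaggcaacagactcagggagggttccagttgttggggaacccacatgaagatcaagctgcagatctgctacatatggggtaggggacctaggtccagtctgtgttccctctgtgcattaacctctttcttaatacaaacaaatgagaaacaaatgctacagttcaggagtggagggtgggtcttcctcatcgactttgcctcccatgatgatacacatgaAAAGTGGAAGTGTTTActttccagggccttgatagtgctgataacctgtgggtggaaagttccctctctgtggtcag
Cd33, chr7:43533122-43533421, minus strand: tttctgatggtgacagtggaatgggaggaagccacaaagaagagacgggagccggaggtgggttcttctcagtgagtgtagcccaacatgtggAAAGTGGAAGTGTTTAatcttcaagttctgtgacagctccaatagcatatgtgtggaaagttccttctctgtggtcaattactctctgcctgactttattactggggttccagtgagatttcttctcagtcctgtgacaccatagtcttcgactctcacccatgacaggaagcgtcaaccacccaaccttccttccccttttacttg
The run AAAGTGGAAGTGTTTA begins at position -27 from the start of Siglecf and at position -157 from that of Cd33. The run was taken from these 2 windows, so its matches there were fixed in advance. On either strand it was found in 2 of the 32851 RefSeq promoter windows (0.00609%), those of Siglecf and Cd33. The other pairs among the 6 members with a RefSeq window shared at most 10 bases in a row. RefSeq windows were matched for Cd22, Cd33, Siglece, Siglecf, Siglecg and Siglech, and for Siglec1 none was matched. The interferon-stimulated response element core GAAANNGAAA, searched on both strands, was in none of the windows of these 6 genes and in 3.44% of all windows. The spaced half-sites TTCNNNNGAA, which STAT6 dimers are known to prefer, were in none of the members' windows and in 6.95% of all windows. The RUNX core TGTGGT, searched after the windows had been seen, matched once each in Siglecf, Cd33 and Siglech, against 16.8% of all windows. In Siglecf and Cd33 the RUNX match lies in a further stretch that is nearly the same in the 2 windows, so these matches are not independent. All matches given here describe the letters of the windows and not binding.

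Cd22, an inhibitory co-receptor of B cells, was expressed at a low level in all 4 conditions, and neither IFNβ comparison was called. The gene (ENSMUSG00000030577) lies on the minus strand of chromosome 7 at 30564827 to 30579767 (GRCm39). It was at 9.28, 8.22 and 8.99 CPM in untreated control, at 12.9, 12.1 and 9.43 CPM with eGFP supernatant, at 9.38, 10.1 and 8.68 CPM with Ifnb1eGFP supernatant, and at 9.99, 8.83 and 7.83 CPM with rIFNβ. The log2 fold change was -0.29 with a standard error of 0.122 for Ifnb1eGFP against eGFP supernatant (adjusted p = 0.0655) and 0.01 with a standard error of 0.125 for rIFNβ against untreated control (adjusted p = 0.966). The first of these depended on the fit, as its adjusted p was 0.0293 with DESeq2, 0.0335 with RLE factors, 0.0288 with replicate as a block, 0.00876 without eGFP supernatant replicate 3 and 0.0494 without Ifnb1eGFP supernatant replicate 2. RSEM divided reads between Cd22 and other genes in 11 of the 12 libraries, where its expected counts were not whole numbers, and the gene Gm29439 on the other strand, with 0 to 24.7 counts, overlaps it.

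B cells also express Cd22. Of 7 B cell markers, Blk had at most 1 count in any library, and 3 passed the filter. Cd79b, a subunit of the B cell receptor, had 13 to 26 counts in untreated control, 19 to 23 with eGFP supernatant, 30 to 44 with Ifnb1eGFP supernatant and 31 to 32 with rIFNβ, and rose in both IFNβ comparisons (adjusted p = 0.0175 and 0.0240). Pax5, a B cell transcription factor gene, had 0 to 3, 0 to 1, 12 to 16 and 7 to 18 counts in the same order. Pax5 passed the filter on low counts only through the libraries with IFNβ, so its test is not given. Ebf1, another such gene, had 4 to 15, 4 to 9, 15 to 22 and 14 to 19 counts. It would not have passed the filter without the libraries with IFNβ, so its test is not given either. The summed level of the 7 markers was 0.878 to 1.08 CPM in untreated control, 0.878 to 0.901 with eGFP supernatant, 1.56 to 1.90 with Ifnb1eGFP supernatant and 1.51 to 2.08 with rIFNβ. The part of B cell transcripts in the level of Cd22 was not tested.

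Siglece, Siglecg and Siglech were at or near the limit of detection. Siglece (ENSMUSG00000030474, chromosome 7, 43298405 to 43309607, minus strand), an inhibitory receptor of neutrophils and macrophages, had 9 to 28 counts in a library. It was at 0.381, 0.731 and 0.402 CPM in untreated control, at 0.556, 0.585 and 0.527 CPM with eGFP supernatant, at 0.455, 0.447 and 0.543 CPM with Ifnb1eGFP supernatant, and at 0.830, 0.629 and 0.227 CPM with rIFNβ. The conditions overlapped, and the standard errors left room for changes of either sign: the log2 fold change was -0.20 ± 0.395 (SE, adjusted p = 0.689) for Ifnb1eGFP against eGFP supernatant and 0.15 ± 0.402 (adjusted p = 0.782) for rIFNβ against untreated control. A difference of this size was not detectable at this depth.

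Siglecg (ENSMUSG00000030468, chromosome 7, 43057628 to 43067782, plus strand), which restrains B cell receptor signals and binds CD24, had 0 to 6.67 expected counts in a library and was not tested. Siglech (ENSMUSG00000051504, chromosome 7, 55417926 to 55429195, plus strand), a receptor of plasmacytoid dendritic cells that signals through DAP12, had 1 count in rIFNβ replicate 3 and 0 in the other 11 libraries. Among 7 plasmacytoid dendritic cell markers, Ly6d and Klk1 had at most 1 count in any library and 4 passed the filter. Cox6a2 had 42 to 143 counts in a library and Ccr9 3.32 to 12, and neither was called. Pacsin1 had 44 to 48 counts in untreated control, 21 to 31 with eGFP supernatant, 0 to 3 with Ifnb1eGFP supernatant and 0 to 2 with rIFNβ. It passed the filter only through the libraries without IFNβ, so its test is not given. The sum of that list, carried by the transcription factor gene Tcf4, was 41.6 to 49.9 CPM in untreated control, 48.6 to 54.1 with eGFP supernatant, 108 to 120 with Ifnb1eGFP supernatant and 93.5 to 104 with rIFNβ.

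Of the Siglec-related genes outside the 7 members, Mag, which encodes the myelin-associated glycoprotein, was tested. It averaged 0.695 ± 0.0885 CPM in untreated control, 0.647 ± 0.0907 with eGFP supernatant, 0.774 ± 0.106 with Ifnb1eGFP supernatant and 1.08 to 1.41 with rIFNβ. It rose with rIFNβ (log2 fold change 0.88, standard error 0.196, adjusted p = 0.00243), while for Ifnb1eGFP against eGFP supernatant the log2 fold change was 0.25 (standard error 0.201, adjusted p = 0.330). Mag had 19 to 56 counts in a library, and the gene Gm44662 on the other strand, with 9 to 21 counts, overlaps it. The part of reads from Gm44662 in the level of Mag was not tested. The interaction between IFNβ and supernatant for Mag was -0.63 with a standard error of 0.281 (unadjusted p = 0.0463 in edgeR, adjusted p = 0.926). Of all genes tested, 4.4% had an unadjusted p under 0.05 there. Mag was lower in every library with Ifnb1eGFP supernatant than with rIFNβ (log2 fold change -0.74, standard error 0.191, adjusted p = 0.321), as were 4.58% of all genes tested. Siglec15 had 0 to 8 counts and Siglecl2 0 or 1 count in a library, and neither was tested.

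Supernatant without IFNβ was compared to untreated control to see what the tumor cell medium did on its own. With edgeR 0 of the 5 tested Siglec genes were called, against 0.299% of all genes tested. There were 2 with an unadjusted p under 0.05 (Cd33 and Cd22), against 8% of all genes, and DESeq2 called 1 of them, Cd33. The log2 fold change of Cd33 was 0.53 with a standard error of 0.111 (adjusted p = 0.104), and all 3 libraries with eGFP supernatant were above all 3 of untreated control. Its adjusted p was 0.00430 with DESeq2, 0.0232 without the filter on low counts and 0.0148 with replicate as a block. Cd22 was likewise higher in all 3 libraries (log2 fold change 0.38, standard error 0.123, adjusted p = 0.351). Of all genes tested, 7.96% had groups that did not overlap in this direction. Siglec1 differed by 0.29 with a standard error of 0.259 (adjusted p = 0.917), or by -0.06 without eGFP supernatant replicate 2, and Siglecf by 0.03 with a standard error of 0.216 (adjusted p = 0.998).

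The 2 sources of IFNβ were compared at the same nominal concentration. For Ifnb1eGFP supernatant against rIFNβ, 0 of the 5 tested Siglec genes were called by edgeR and 0 by DESeq2, against 0.16% of all genes with edgeR, and 1 (Cd33) had an unadjusted p under 0.05, against 8.57%. Siglec1 was lower in all 3 libraries with supernatant (log2 fold change -0.28, standard error 0.254, adjusted p = 0.701), and 4.58% of all genes tested had groups separated in this direction. Cd33 was higher in all 3 (log2 fold change 0.29, standard error 0.116, adjusted p = 0.567), where the share of all genes was 8.22%. Siglecf differed by -0.19 with a standard error of 0.310 (adjusted p = 0.839), and by 0.10 without Ifnb1eGFP supernatant replicate 2.

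The interaction asked whether the response to IFNβ differed with the medium that carried it. Of the 5 tested Siglec genes 0 were called, by edgeR or DESeq2, and 0 had an unadjusted p under 0.05, against 4.4% of all genes tested, of which edgeR called 0%. The difference between the 2 log2 fold changes was -0.58 ± 0.363 (SE, adjusted p = 0.926) for Siglec1, -0.22 ± 0.378 (adjusted p = 0.928) for Siglecf and -0.24 ± 0.161 (adjusted p = 0.926) for Cd33. Without eGFP supernatant replicate 2 the value for Siglec1 was -0.22. These standard errors do not show that the responses were equal.

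**Figure D2:**
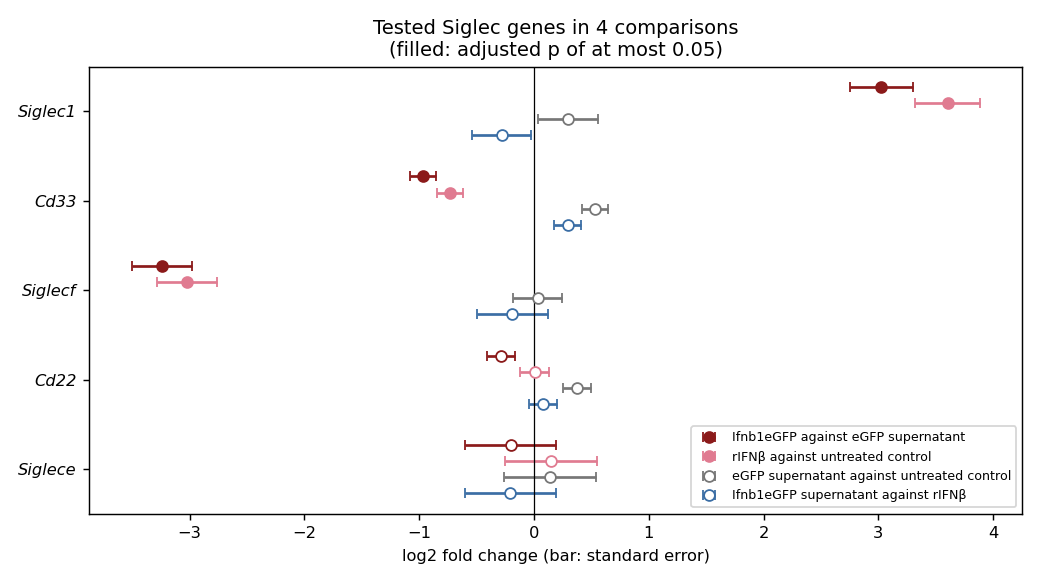
Log2 fold change (x axis; bars are standard errors) of the 5 tested Siglec genes in 4 comparisons, filled at an adjusted p ≤ 0.05. Siglec1 lies at 3.03 and 3.60 and Siglecf at -3.24 and -3.02 in the 2 comparisons of IFNβ with its control, while no point is filled for eGFP supernatant against untreated control or for Ifnb1eGFP supernatant against rIFNβ.

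Levels of different Siglec genes were compared per kilobase of exon. In untreated control the order was Siglec1, Cd22, Siglecf, Cd33, Siglece, Siglecg and Siglech, where the libraries of Cd22 and Siglecf and those of Siglecf and Cd33 overlapped. In the other 3 conditions Cd33 came before Siglecf. With eGFP supernatant Cd22 and Cd33 overlapped, and with either source of IFNβ Siglecf and Siglece overlapped, at 0.0890 to 0.217 and 0.107 to 0.130 CPM per kilobase with Ifnb1eGFP supernatant and 0.137 to 0.255 and 0.0545 to 0.199 with rIFNβ. Dividing by the longest transcript in place of all exons changed the order in untreated control alone, where Cd33 then came before Siglecf.

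The summed level of the 7 genes was 14.6 ± 2.64 CPM per kilobase (SD, n = 3) in untreated control, 17.9 ± 5.05 with eGFP supernatant, 101 ± 9.55 with Ifnb1eGFP supernatant and 122 ± 9.74 with rIFNβ. Siglec1 made up 66.8 ± 7.58% of that sum in untreated control and 65.8 ± 7.91% with eGFP supernatant, and 96.9 ± 0.288% and 97.6 ± 0.0265% with Ifnb1eGFP supernatant and rIFNβ. The share of Siglecf went from 10.6% in untreated control and 9.13% with eGFP supernatant to 0.164% and 0.153%. The ratio of Siglec1 to Siglecf per kilobase was 8.17, 7.61 and 4.18 in untreated control and 6.52, 12.5 and 5.08 with eGFP supernatant. With Ifnb1eGFP supernatant it was 413, 1221 and 541, and with rIFNβ 503, 884 and 636. The highest ratio was that of Ifnb1eGFP supernatant replicate 2, the library with the lowest Siglecf.

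**Figure D3:**
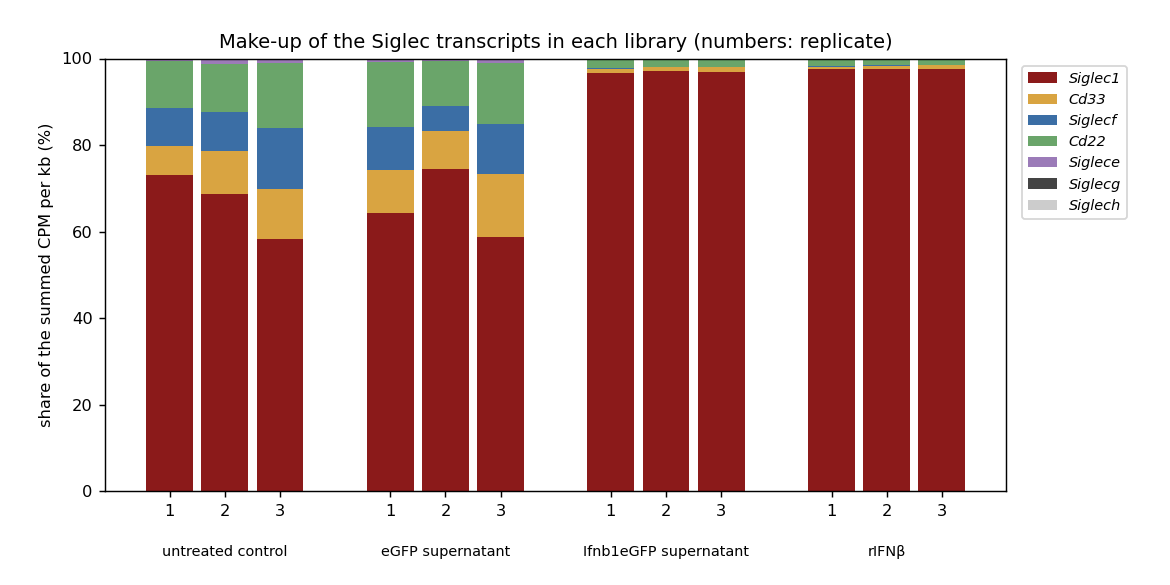
Share of each Siglec gene in the summed CPM per kilobase of the 7 genes (y axis, percent), in each of the 12 libraries grouped by condition. Siglec1 makes up 58.4% to 73.2% in untreated control and over 96% in every library that received IFNβ, where Cd22, Cd33 and Siglecf are thin bands.

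In the libraries without added IFNβ, Siglec1 and the interferon-stimulated genes had the same order within a condition. In untreated control replicates 1, 2 and 3, with Siglec1 at 89.8, 71.9 and 49.6 CPM, the 12 genes summed to 171, 133 and 105 CPM. With eGFP supernatant both measures were highest in replicate 2 and lowest in replicate 3. Irf7, the transcription factor that amplifies the type I IFN response, was at 5.25 to 11.3 CPM in untreated control, at 6.62 to 45.2 CPM with eGFP supernatant, at 1333 to 1694 CPM with Ifnb1eGFP supernatant and at 1741 to 1903 CPM with rIFNβ. All 12 genes rose in both IFNβ comparisons, with median log2 fold changes of 4.63 and 6.63, beside 3.03 and 3.60 for Siglec1. Among the libraries with IFNβ the order was not shared: Siglec1 was lowest in Ifnb1eGFP supernatant replicate 1, at 641 CPM, where the 12 genes summed to 10626 CPM, the highest of that condition. These orders within 3 libraries are a description without a test.

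**Figure D4:**
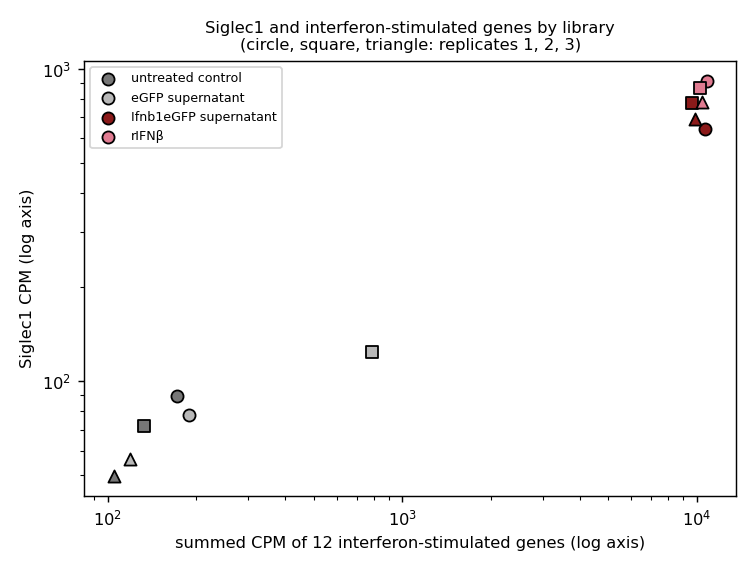
Siglec1 (y axis, CPM, log scale) against the summed level of 12 interferon-stimulated genes (x axis, CPM, log scale) in each of the 12 libraries, colored by condition, with the replicate number as symbol. The 6 libraries without IFNβ run from 105 CPM to 792 CPM on the x axis, the last being eGFP supernatant replicate 2, and the 6 libraries with IFNβ lie together at the upper right.

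The genes most like each member were sought by the root mean square difference of log2 CPM, centered on each gene's mean, over the 12 libraries. For Siglec1 these were Helz2, a helicase gene, at 0.136, Stat2, the STAT partner in type I IFN signaling, at 0.184, and Pou3f1, a POU-domain transcription factor gene, at 0.210. For Siglecf they were Mmp12, the macrophage elastase, at 0.239, Acp3, an acid phosphatase gene, at 0.247, and Ankrd37 at 0.257. Mmp12 averaged 9491 CPM in untreated control and 1013 CPM with rIFNβ, where Siglecf averaged 4.20 and 0.525 CPM. For Cd33 they were Tuba4a, an alpha tubulin, at 0.116, Prkab2, a subunit of AMP-activated protein kinase, at 0.117, and Enpp1, an ectonucleotidase, at 0.164. For Cd22, Sipa1l2, Gm4459 and Gpr157 were nearest, at 0.110 to 0.130. For Siglece the nearest genes, 6330549D23Rik, 1500002C15Rik and Phkg1, were at 0.303 to 0.314, farther than those of any other tested member.

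The machinery on which Siglecs act or depend was examined in lists of genes. Among 14 signaling adaptors and effectors, all tested, 7 rose and 1 fell for Ifnb1eGFP against eGFP supernatant, and 6 rose and 5 fell for rIFNβ against untreated control. Their median log2 fold changes were 0.36 and 0.24, beside 0.03 and 0.04 over all genes tested. Of all genes tested 30.1% rose and 25% fell in the first comparison and 30.7% rose and 24.6% fell in the second. Tyrobp, which encodes DAP12, the adaptor through which CD33 and Siglec-H can signal, stayed within a narrow range of levels. It averaged 1014 ± 15.7 CPM in untreated control, 972 ± 9.14 with eGFP supernatant, 919.5 ± 13.6 with Ifnb1eGFP supernatant and 946 ± 22.5 with rIFNβ, with log2 fold changes of -0.08 (adjusted p = 0.0766) and -0.10 (adjusted p = 0.0314) in the 2 comparisons. Hcst, which encodes the adaptor DAP10, had -0.13 (adjusted p = 0.393) and 0.00 (adjusted p = 0.980).

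The phosphatases differed among themselves. Ptpn6, which encodes SHP-1, rose from 177 ± 7.63 CPM with eGFP supernatant to 304 ± 5.56 with Ifnb1eGFP supernatant and from 191 ± 4.65 in untreated control to 336 ± 5.95 with rIFNβ, by 0.78 and 0.81 on the log2 scale (adjusted p = 3.62e-08 and 2.31e-08). Inpp5d, which encodes the lipid phosphatase SHIP1, rose by 0.58 and 0.63 (adjusted p = 1.10e-06 and 5.16e-07). Ptpn11, which encodes SHP-2, had log2 fold changes of -0.09 (adjusted p = 0.0845) and -0.17 (adjusted p = 0.00404). Among Src family kinases, which phosphorylate the tyrosine motifs, Lyn rose from 178 ± 9.67 to 681 ± 33.1 CPM with Ifnb1eGFP supernatant and from 174 ± 4.39 to 667 ± 26.9 CPM with rIFNβ, by 1.94 in both comparisons (adjusted p = 4.29e-10 and 3.43e-10). Fgr, at 1.05 ± 0.285 and 1.41 ± 0.307 CPM without IFNβ, fell by 1.23 and 1.69 (adjusted p = 0.0118 and 0.00173).

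Most of the tested genes that attach sialic acid to glycans fell with IFNβ. Of 20 sialyltransferase genes 10 were tested. For Ifnb1eGFP against eGFP supernatant 2 rose and 7 fell, for rIFNβ against untreated control 2 rose and 6 fell, and the medians were -0.68 and -0.64. Over all genes tested 30.1% and 30.7% rose and 25% and 24.6% fell. St3gal1, which caps O-glycans, fell by 1.17 and 1.23 (adjusted p = 2.95e-07 and 1.75e-07). St8sia4, a polysialyltransferase gene, fell by 1.19 and 1.22 (adjusted p = 9.08e-06 and 7.22e-06). St3gal4, which also adds terminal sialic acid, rose by 0.72 and 0.74 (adjusted p = 0.000254 and 0.000214). St6gal1, which makes the linkage that CD22 binds, had log2 fold changes of -0.05 (adjusted p = 0.533) and -0.11 (adjusted p = 0.188).

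Of 6 genes of sialic acid synthesis, 1 rose and 3 fell with Ifnb1eGFP supernatant, and 1 rose and 2 fell with rIFNβ, with medians of -0.29 and -0.04. Over all genes tested 30.1% rose and 25% fell in the first comparison and 30.7% and 24.6% in the second. Gne, the first and rate-limiting enzyme of the pathway, had -0.14 (adjusted p = 0.125) and -0.01 (adjusted p = 0.924). Cmah, which makes the glycolyl form of sialic acid that mouse CD22 prefers, was at 1.80 ± 0.314 CPM with eGFP supernatant and 1.14 ± 0.183 with Ifnb1eGFP supernatant (log2 fold change -0.66, adjusted p = 0.00575), and at 1.74 ± 0.132 CPM in untreated control and 1.67 ± 0.0637 with rIFNβ (-0.06, adjusted p = 0.776). Among the 7 of 9 tested genes of sialic acid removal and modification, 3 rose and 3 fell in the first comparison and 4 rose and 3 fell in the second, with medians of 0.09 and 0.37, beside the same background. Neu3, the plasma membrane sialidase gene, rose by 0.71 and 1.05 (adjusted p = 0.00702 and 0.000596). Npl, which encodes the lyase that breaks down free sialic acid, fell by 1.44 and 1.31 (adjusted p = 2.05e-06 and 4.87e-06). Siae, an esterase gene that removes acetyl groups and so exposes ligands of CD22, rose by 0.40 in both (adjusted p = 7.80e-06 and 7.41e-06). Casd1, which adds such acetyl groups, rose by 0.55 in both (adjusted p = 5.79e-05 and 5.51e-05). Neu1, the lysosomal sialidase gene, had 0.09 (adjusted p = 0.641) and 0.37 (adjusted p = 0.0473).

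**Figure D5:**
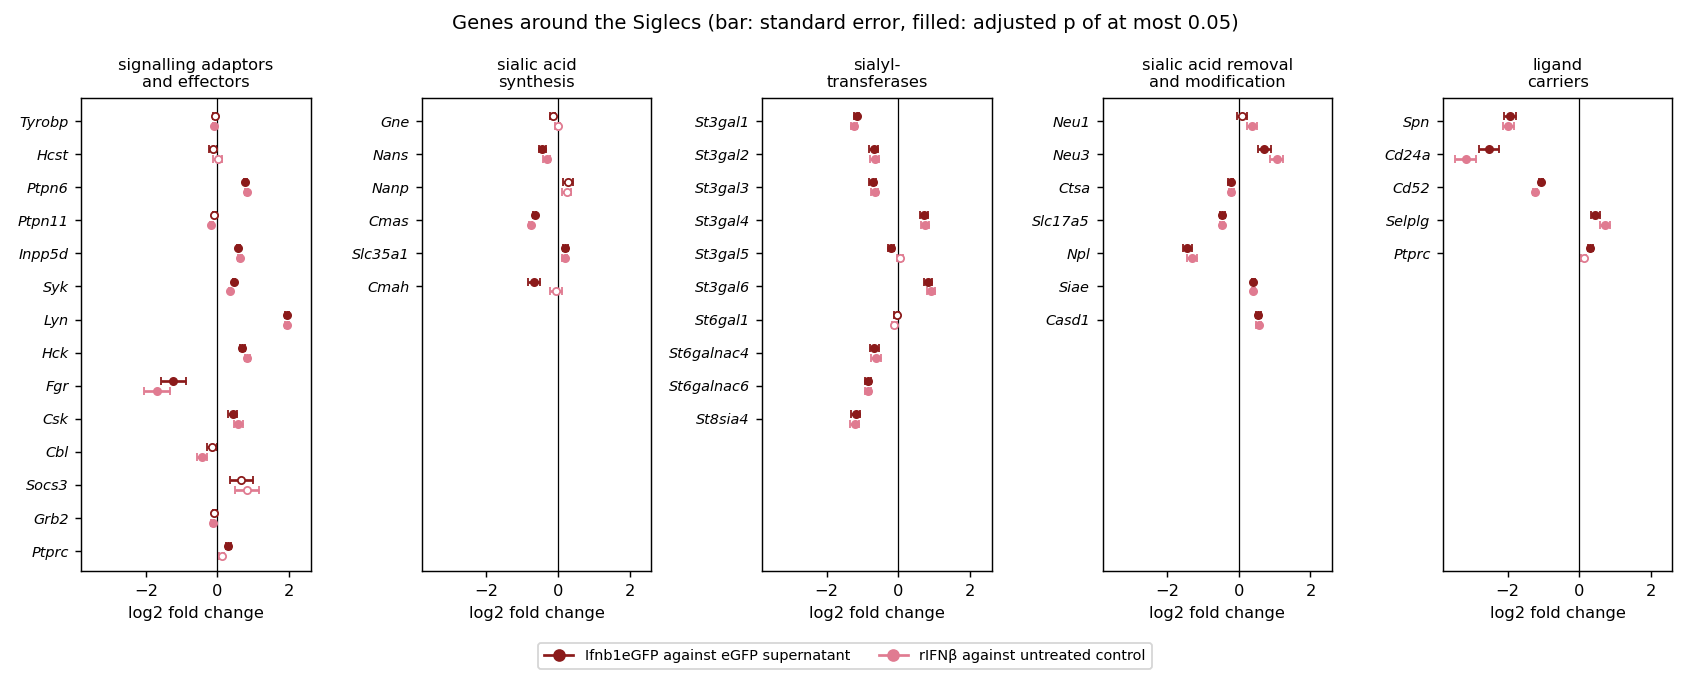
Log2 fold change (x axes; bars are standard errors) of the tested genes of 5 lists around the Siglecs, for Ifnb1eGFP against eGFP supernatant (dark red) and rIFNβ against untreated control (pink), filled at an adjusted p ≤ 0.05. Lyn is farthest to the right at 1.94 in both, and Cd24a farthest to the left at -2.52 and -3.18.

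Proteins that carry Siglec ligands made up the pathway list with the lowest medians, -1.07 and -1.23 over the 5 of 6 genes tested. In the first comparison 2 rose and 3 fell, and in the second 1 rose and 3 fell, beside 25% and 24.6% of all genes tested that fell. Cd24a, whose product is a ligand of Siglec-G, went from 3.21 ± 0.202 CPM with eGFP supernatant to 0.559 ± 0.0606 with Ifnb1eGFP supernatant and from 3.99 ± 0.781 in untreated control to 0.435 ± 0.244 with rIFNβ, log2 fold changes of -2.52 (adjusted p = 1.16e-05) and -3.18 (adjusted p = 2.20e-06). Spn, which encodes CD43, a sialomucin to which Siglec1 is known to bind, fell by 1.93 and 1.98 (adjusted p = 1.35e-06 and 8.93e-07). Cd52, a small glycoprotein gene, fell by 1.07 and 1.23 (adjusted p = 2.53e-08 and 7.48e-09). Siglec1 thus rose in the comparisons in which Spn fell, and Cd24a fell where Siglecg was at or near the floor.

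The remaining cell type lists were at low levels or were carried by a gene that macrophages share. Neutrophil markers, of which 1 of 8 (S100a8) was tested, summed to 4.37 to 5.91 CPM in untreated control, 4.36 to 5.05 with eGFP supernatant, 0.422 to 0.586 with Ifnb1eGFP supernatant and 0.297 to 1.09 with rIFNβ, and Elane and Camp had at most 1 count in any library. This sum moved in the same direction as Siglecf, as did the sums of the lists that follow, and the part of these lists in the level of Siglecf was not tested. Conventional dendritic cell markers summed to 1.56 to 2.28 CPM without IFNβ and 0.422 to 0.732 with it, and T cell markers to 0.401 to 0.985 and 0.0745 to 0.430. Melanoma markers, carried by Mitf, summed to 153 to 168 CPM without IFNβ and 88.1 to 103 with it, while Tyrp1 was at 0 in every library and Tyr and Sox10 at no more than 1 count.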

How the data were processed

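Total RNA of M2-like BMDM was sequenced from TruSeq Stranded Total RNA libraries. The authors aligned reads with RSEM (1.3.3) and deposited expected counts per Ensembl gene without normalization. For the genome the methods give GRCm39 mm10, the names of 2 builds. Positions given here are GRCm39 (GENCODE), and promoter windows GRCm38.p6 (RefSeq). Conditions came from the sample titles, and 0 columns of per-sample values were left unused. The labels give no batch.

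Expected counts, 12% of them not whole, were rounded. The genes kept by filterByExpr entered, with TMM factors, 1 edgeR 4.0.16 quasi-likelihood model (R 4.3.3) of the 12 libraries, with Benjamini-Hochberg adjustment over 15033 genes. A gene was called at an adjusted p of at most 0.05. Standard errors are the log2 fold change divided by the square root of F, and log2 CPM used a prior count of 2. The floor was 3 counts in a library. With 3 libraries against 3 an exact permutation test cannot give a p under 0.1, so none was run.

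The Siglec members, 5 pathway lists, 12 interferon-stimulated genes and 9 cell type marker lists, of which 8 are reported, written from general knowledge, were chosen with earlier results of these data known. Named were all members, Mag, Siglec15, Siglecl2, list genes called with a log2 fold change of 1 or more in size in either IFNβ comparison, a preset group of list genes, Irf7 and the 3 genes nearest each tested member. Casd1 and the marker genes of cell types were named after their values were seen, and some items are not reported here. Libraries of a condition differed by more than counting error (chi-square per degree of freedom 5.58 to 56.9), so none was counted as a duplicate. On simulated counts for Ifnb1eGFP against eGFP supernatant (15033 genes), 50 genes were set at each log2 fold change named next and the others at none. The test recovered 82% of those at -3, 68% at -1, 78% at 1 and 100% at 3, and 3.53% of all its calls were false. In the data 55.1% of genes were called in this comparison, so the simulation did not cover a change in so many genes. Alternatives were DESeq2 1.42.0, RLE factors, library totals alone, no filter, the replicate block, only the compared conditions, a minimum log2 fold change of 1, the study's thresholds, exon against transcript length, and each library left out in turn. Library totals alone, the study's thresholds as a count and the RUNX motif were chosen after seeing the data.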

Additional observations from a re-analysis of the deposited data

How the results depend on the processing

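Siglec1, Siglecf and Cd33 kept their direction and their calls in both IFNβ comparisons under each of the 12 alternatives of the fit, filter or libraries run for each. With a log2 fold change of 1 or more in size also required, 2 Siglec genes in place of 3 were called in each of these comparisons, Cd33 being lost. Over the 12 alternatives the log2 fold change for Ifnb1eGFP against eGFP supernatant and for rIFNβ against untreated control was 2.80 to 3.39 and 3.40 to 3.81 for Siglec1, -3.53 to -2.96 and -3.28 to -2.83 for Siglecf, and -1.04 to -0.91 and -0.83 to -0.64 for Cd33. For eGFP supernatant against untreated control, 1 Siglec gene in place of 0 was called with DESeq2, with no filter on low counts and with the replicate block, in each case Cd33. Small differences that were not called changed sign. For rIFNβ against untreated control, Cd22 was at -0.040 with DESeq2, -0.040 with RLE factors, -0.0022 with the replicate block and -0.028 in a fit of the compared conditions alone. Leaving out single libraries moved Cd22 between -0.081 and 0.092 and Siglece between -0.21 and 0.53 in that comparison. For eGFP supernatant against untreated control it moved Siglec1 between -0.065 and 0.53, Siglece between -0.012 and 0.50 and Siglecf between -0.054 and 0.11. For Ifnb1eGFP supernatant against rIFNβ it moved Cd22 between -0.0010 and 0.17, Siglece between -0.58 and 0.16 and Siglecf between -0.43 and 0.10, and for the interaction Siglece between -0.73 and 0.014 and Siglecf between -0.46 and 0.066. The cause was not tested. Over all genes, the calls for eGFP supernatant against untreated control were 37 higher and 8 lower, and 123 and 65 with DESeq2, 67 and 8 with no filter and 89 and 33 with the replicate block. For the interaction DESeq2 called 4 and 2. The labels do not say what a replicate number stands for. The deviations of libraries with the same number correlated at 0.0582 to 0.252 over 18 pairs and those with different numbers at -0.318 to 0.147 over 36, and 12 of 12 libraries correlated best with their own number. Since not every same-number pair was over 0.1, the numbers were not treated as pairs, and the block is given as an alternative. Depth limits Siglece, Siglecg and Siglech, with at most 28, 6.67 and 1 counts in a library.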

Other observations

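The genes around the Siglec cluster on chromosome 7 were looked at after the values of Siglecf and Cd33 had been seen. Between Siglecf and Siglece lie several tested genes of other kinds, and none moved by as much as Siglecf. Etfb, a subunit of the electron transfer flavoprotein, had a log2 fold change of -0.35 for Ifnb1eGFP against eGFP supernatant (adjusted p = 0.0135, edgeR) and of -0.30 for rIFNβ against untreated control (adjusted p = 0.0289). Vsig10l was at -0.30 (adjusted p = 0.0590) and 0.00 (adjusted p = 0.993), Iglon5 at -0.62 (adjusted p = 0.148) and 0.07 (adjusted p = 0.880), Zfp175 at -0.26 (adjusted p = 0.0831) and 0.14 (adjusted p = 0.365), and Zfp719 at 0.32 (adjusted p = 0.0524) and 0.30 (adjusted p = 0.0686). Outside the pair, Zfp715 next to Siglecf was at -0.12 (adjusted p = 0.124) and -0.15 (adjusted p = 0.0717). Ctu1, beyond Siglece, was higher by 0.41 (adjusted p = 0.0255) and 0.46 (adjusted p = 0.0161). Siglecl1, a further Siglec-like gene next to Cd33, had at most 3 counts in any library.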
